A study of Mus musculus with 10 samples.

Results

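The genes described here are 10 that mark neuroblasts and immature neurons of the dentate gyrus, the part of the hippocampus in which neurons are still born in adult rodents: Dcx, Neurod1, Neurod2, Neurod6, Sox11, Sox4, Eomes, Calb2, Prox1 and Islr2. They were followed by name through every probe set whose only annotated gene was one of them, which gave 31 of the 45037 probe sets on the array and 10 of 18193 genes. Hippocampi came from 5 TPlp+AxL mice, which received adoptively transferred T cells specific for the myelin protein Plp and then an axonal lesion, and from 5 AxL mice, which had the lesion alone. All 10 were adult female SJL/J mice, obtained at 8 to 10 weeks of age and examined 2 days after the lesion, and each gave 1 array of whole hippocampus. Both groups carry the lesion and no unlesioned mouse was analysed here, so the comparison concerns the transferred T cells and not the lesion.

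In the adult dentate gyrus, radial stem cells give rise to intermediate progenitors that express the T-box factor Eomes (Tbr2) and then the basic helix-loop-helix factor Neurod1. Neuroblasts and young granule neurons carry the microtubule-binding protein doublecortin (Dcx) and the SoxC transcription factors Sox4 and Sox11, and pass through a stage with the calcium-binding protein calretinin (Calb2) before they mature. The homeobox factor Prox1 specifies and maintains granule cell identity throughout. Several of these genes are also expressed elsewhere: Neurod2 and Neurod6 in mature pyramidal and granule neurons, Calb2 in interneurons, Prox1 in mature granule cells and some interneurons, and Eomes in cytotoxic T cells and NK cells.

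None of the 10 genes passed the test. In the limma fit over all 45037 probe sets, 0 of the 31 probe sets passed an adjusted p of 0.05, with adjusted p from 0.197 to 0.999, while 0.835% of all probe sets passed (0.646% of all probe sets were higher and 0.189% lower in TPlp+AxL). At that background a count of 0 among 31 is no result about these genes. The 95% interval left out 0 for both bright Neurod2 probe sets, for Islr2 and for the Sox11 probe set 1431225_at, all lower in TPlp+AxL. These were the 4 of 31 with an unadjusted p under 0.05, against 14.3% of all probe sets in limma. Changes are log2 TPlp+AxL minus AxL, and they ran from -0.36 to 0.11 with a median of -0.03 over the 31, with 19 negative and 12 positive, where 51.7% of all probe sets were negative. The 95% interval lay within 1 log2 unit of 0 in 30 of the 31 probe sets, the exception being the Sox11 probe set 1436790_a_at (-1.08 to 0.35). In bulk tissue such as this, fewer cells of a type and less RNA per cell cannot be told apart.

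Beside the tissue label, 7 genes of hippocampal neurons were read: Wfs1, Calb1, Zbtb20, Lhx2, Emx1, Prox1 and Neurod6. Prox1 and Neurod6 also belong to the 10 genes. The mean log2 value of the 7 was 10.38 to 10.53 in the TPlp+AxL mice and 10.33 to 10.63 in the AxL mice. Array medians were 7.88 to 7.92. No other tissue was measured, so these values do not tell hippocampus from other forebrain. AxL mouse 4 stood apart. Its closest array correlated with it at 0.993, where the other 9 arrays had 0.996 to 0.998, and 57 probe sets lay over 1 log2 unit above the mean of the other AxL mice and 29 over 1 unit below. By the same count AxL mouse 3 had 69 above and 1 below, and TPlp+AxL mouse 1 had 37 above and 1 below. Results that rest on this mouse are given with and without it. Signal level also moved with the groups. Probe sets with log2 levels from 7 to 8 had a median change of 0.03, and those from 11 to 12 one of -0.11. The median change of the probe sets within 0.25 log2 units of the same mean level is therefore set beside the changes of single genes where it matters.

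**Figure D1:**
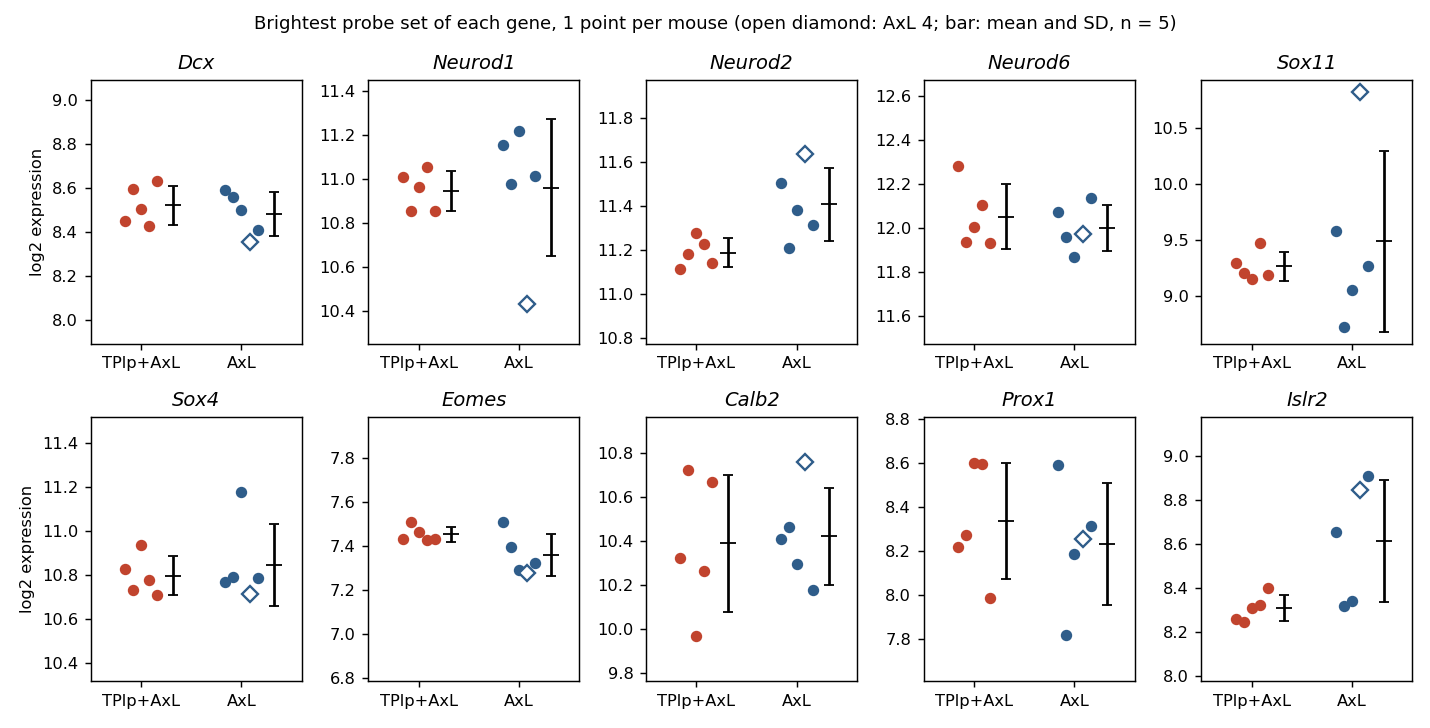
Log2 expression (vertical axes, each panel with its own range) of the brightest probe set of each of the 10 genes, with TPlp+AxL mice in red on the left and AxL mice in blue on the right. Each point is 1 mouse, open diamonds mark AxL mouse 4, and bars are the mean and SD (n = 5). The groups overlap in all 10 panels, and AxL mouse 4 is the highest point for Sox11 (10.83) and the lowest for Neurod1 (10.43).

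Dcx, the standard marker of neuroblasts, was measured by 4 probe sets, and the groups overlapped in each. On the brightest, 1418139_at, the TPlp+AxL mice had log2 values of 8.45, 8.60, 8.51, 8.43 and 8.63, and the AxL mice 8.59, 8.56, 8.50, 8.35 and 8.41. The means were 8.52 ± 0.09 in TPlp+AxL and 8.48 ± 0.10 in AxL (SD, n = 5 each), so the difference was smaller than the spread within either group. The change was 0.04 (SE 0.06, 95% interval -0.09 to 0.16, limma adjusted p = 0.77), which in linear terms is a ratio of 1.03 with an interval of 0.943 to 1.12. The other 3 Dcx probe sets, with mean levels of 7.39 to 7.61 below the array medians of 7.88 to 7.92, did not share a direction. They had -0.07 (1448974_at), -0.04 (1418140_at) and 0.11 (1418141_at), with adjusted p of 0.498, 0.754 and 0.359 in limma. The widest bounds over the 4 Dcx probe sets were -0.16 and 0.22.

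The Dcx probe sets followed each other only in part from mouse to mouse. After each group's mean was subtracted, 1448974_at and 1418140_at correlated over the 10 mice (Pearson r = 0.85, adjusted p = 0.00462 in an exact permutation test within groups, Spearman rho = 0.83, adjusted p = 0.0327, over 57 pairs of probe sets of the same gene). Without the 2 mice farthest from the median, AxL 4 and AxL 5, r was 0.72. The brightest Dcx probe set had r of 0.35 to 0.58 with the other 3, none of which passed (adjusted p of 0.339 to 0.712, exact permutation test). The genes whose representative probe set was most like it over the 10 mice were Ppp1r27, Rec8, Tcea2, Slfnl1 and Gm15506, with r of 0.94 to 0.95, given as a description. None of these 5 is on the list of immature neuron genes used here, and r without AxL mouse 4 was 0.92 to 0.94. They were picked for the highest r among 18193 genes in the same mice, so r without 1 of these mice is no separate check. Ppp1r27, Slfnl1 and Gm15506 were dim, with mean levels of 6.87, 7.49 and 7.67.

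Eomes, the factor of intermediate progenitors, was measured by 2 probe sets, and the groups overlapped on both. Both were dim, with mean levels of 7.41 and 7.34 below the array medians of 7.88 to 7.92. Across mice they had r of 0.14 with each other. On 1426001_at the TPlp+AxL mice had 7.43, 7.51, 7.46, 7.43 and 7.43, and the AxL mice 7.51, 7.40, 7.29, 7.28 and 7.32. All TPlp+AxL mice lay above 4 of the 5 AxL mice, and AxL mouse 1 was level with the highest of them. The change was 0.09 (SE 0.05, 95% interval -0.01 to 0.20, adjusted p = 0.385 in limma), and that of 1435172_at was 0.04 (adjusted p = 0.807). On 1435172_at the TPlp+AxL mice had 7.11, 7.48, 7.34, 7.53 and 7.32, and the AxL mice 7.31, 7.33, 7.29, 7.31 and 7.34. The TPlp+AxL mice spread more widely there and enclosed all AxL values. T and NK cells, which also use Eomes, were measured in the same hippocampi through their marker genes, and 5 of 13 measured genes of their list rose, against 0.978% of all genes, with a median of 0.38. Cd3g, a chain of the T cell receptor complex, rose by 0.87 (SE 0.14, adjusted p = 0.0122), Cd3d, another such chain, by 0.63 (SE 0.12, adjusted p = 0.0302), and the granule protease Gzmb by 0.52 (SE 0.06, adjusted p = 0.00171), all in limma. The mean of the list was 7.67 to 7.92 in TPlp+AxL and 7.44 to 7.51 in AxL. The count of 5 was 2 without AxL mouse 1, 3, 4 or 5 or TPlp+AxL mouse 4, 3 without TPlp+AxL mouse 5, and 2 with the replicate block or the choroid plexus covariate. Without the dimmest 40% of probe sets it was 2, with a median of 0.09. What part these cells had in the Eomes signal was not tested.

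Neurod1, Neurod2 and Neurod6 are related basic helix-loop-helix factors that bind E-boxes, 6-base sites of the form CANNTG. Neurod1 drives the differentiation of new granule neurons and its family members act in later neurons. The bases just before the start of transcription are shown for Neurod1 and Neurod2, because their values went different ways in AxL mouse 4, with E-boxes in capitals, from RefSeq on GRCm38.p6.
Neurod1 (chr2:79456637-79456886, minus strand): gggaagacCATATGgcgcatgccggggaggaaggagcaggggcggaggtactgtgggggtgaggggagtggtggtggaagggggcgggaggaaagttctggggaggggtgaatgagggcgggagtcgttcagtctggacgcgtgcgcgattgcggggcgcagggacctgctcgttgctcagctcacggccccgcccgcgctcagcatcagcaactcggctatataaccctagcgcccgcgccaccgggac
Neurod2 (chr11:98329646-98329895, minus strand): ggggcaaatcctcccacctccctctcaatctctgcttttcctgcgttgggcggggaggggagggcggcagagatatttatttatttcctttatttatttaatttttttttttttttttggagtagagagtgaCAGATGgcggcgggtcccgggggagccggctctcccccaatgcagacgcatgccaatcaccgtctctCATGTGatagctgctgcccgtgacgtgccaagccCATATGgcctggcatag
The windows hold 250 bases before the start and were searched on both strands. They hold 1 E-box for Neurod1 and 3 for Neurod2, and the Neurod2 window also holds 1 TGACG, the core of the cyclic AMP response element, which overlaps no E-box. Of 32851 such mouse windows, 66.2% hold an E-box and 17.8% hold TGACG. Of the 10 genes, 9 had windows in the table, 13 in all, and 7 of the 9 had an E-box in at least 1 of them. Islr2 and Prox1, which are among the 7, each also had a window without an E-box. The count by gene cannot be set against 66.2%, which is a share of single windows. A match is a description of the letters and not a binding site.

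Neurod2 had the smallest p of the 10 genes and did not pass. On its brightest probe set, 1418995_at, the TPlp+AxL mice had 11.12, 11.18, 11.28, 11.23 and 11.14, and the AxL mice 11.51, 11.21, 11.39, 11.64 and 11.31. On 1435411_at the TPlp+AxL mice had 10.98, 11.11, 11.09, 10.98 and 10.91, and the AxL mice 11.29, 11.16, 11.26, 11.69 and 11.15. Here all 5 TPlp+AxL mice lay below all 5 AxL mice, which was so, in either direction, for 1 of the 31 probe sets and for 3.59% of all probe sets (1.64% with TPlp+AxL lower). The changes were -0.22 (SE 0.07, 95% interval -0.38 to -0.06, adjusted p = 0.211) and -0.30 (SE 0.09, 95% interval -0.50 to -0.09, adjusted p = 0.197) in limma.

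Part of these Neurod2 values was shared with other bright probe sets, whose median change at the same level was -0.11 for both. After quantile normalization the 2 changes were -0.11 and -0.19, and after cyclic loess -0.12 and -0.20. The 2 bright Neurod2 probe sets followed each other across mice (r = 0.85, adjusted p = 0.0228, rho = 0.87, adjusted p = 0.0327, exact permutation test), with r of 0.63 without AxL 2 and AxL 4. AxL mouse 4 had the highest value on both, and without it the changes were -0.16 (adjusted p = 0.266) and -0.20 (adjusted p = 0.128) in limma. The dim probe set 1444362_at lay near the bottom of the signal range at 6.55 to 6.71 in TPlp+AxL and 6.55 to 6.68 in AxL and had a change of -0.0043 (adjusted p = 0.969).

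Neurod1 differed little between the group means and much between AxL mice. On 1426412_at the TPlp+AxL mice had 11.01, 10.85, 10.96, 11.05 and 10.85, and the AxL mice 11.16, 10.98, 11.22, 10.43 and 11.01. AxL mouse 4 was the lowest of the 10 on both Neurod1 probe sets, while it was the highest on both bright Neurod2 probe sets. The change was -0.01 (95% interval -0.29 to 0.26, adjusted p = 0.969) with it and -0.15 (adjusted p = 0.345) without it, in limma, where the median change at the same level was -0.11. The second probe set, 1426413_at, had 0.03 with it and -0.05 without it. The SD on 1426412_at was 0.09 in TPlp+AxL and 0.31 in AxL, and 0.11 over the 4 AxL mice other than mouse 4. Neurod6, a factor of forebrain excitatory neurons with 1 probe set, had 12.28, 11.93, 12.00, 12.10 and 11.93 in TPlp+AxL and 12.07, 11.96, 11.87, 11.97 and 12.13 in AxL. Its change was 0.05 (95% interval -0.11 to 0.21, adjusted p = 0.772), beside a median of -0.13 at its level. After quantile normalization it was 0.18 and after cyclic loess 0.17 (adjusted p of 0.37 and 0.388 in limma).

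**Figure D2:**
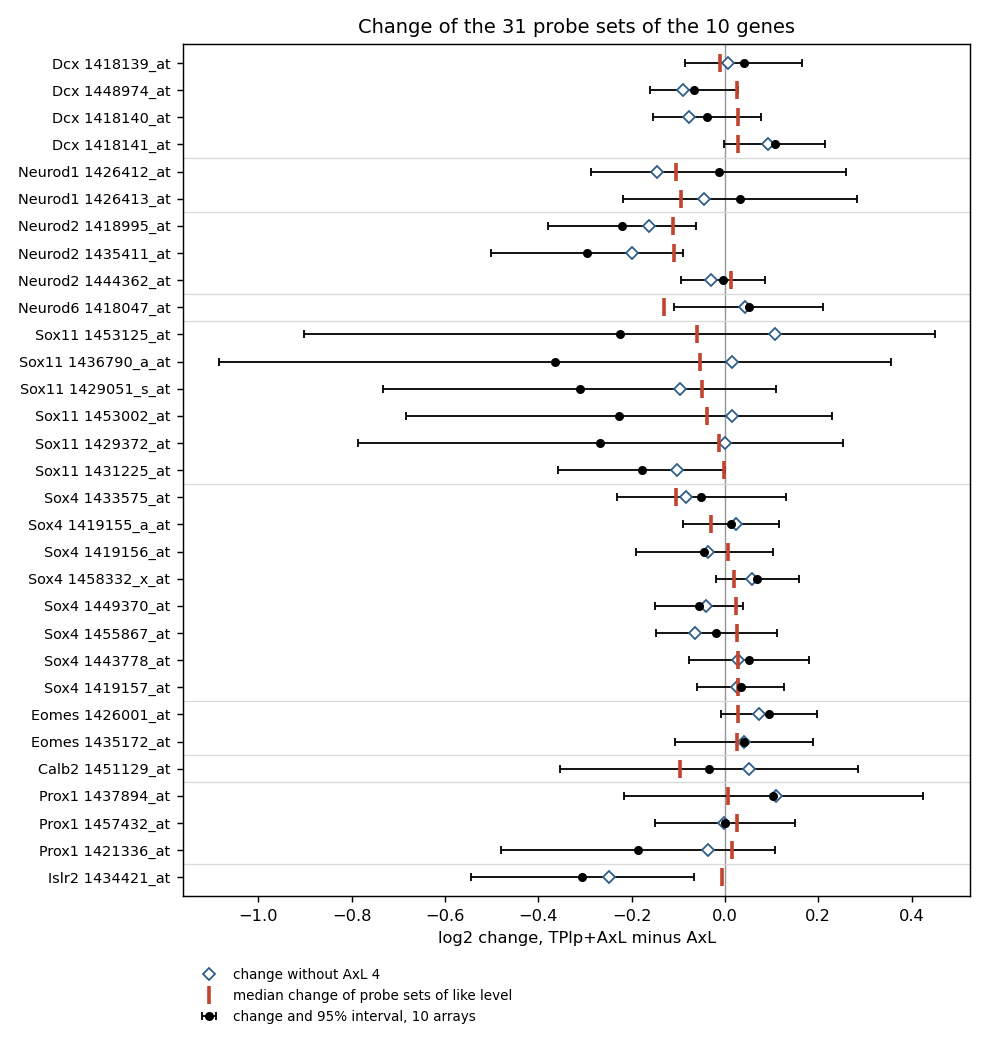
Log2 change (horizontal axis, TPlp+AxL minus AxL) of each of the 31 probe sets, with black points and bars for the change and its 95% interval over 10 arrays, open diamonds for the change without AxL mouse 4, and red ticks for the median change of probe sets of like level. The Sox11 intervals are the widest, and without AxL mouse 4 the Sox11 changes lie between -0.10 and 0.11.

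Sox11 and Sox4, the SoxC factors, switch on neuronal genes in young neurons, and Sox11 is also known to be induced in dentate granule cells by neuronal activity. The 2 genes behaved differently across these mice. On the brightest Sox11 probe set, 1453125_at, the TPlp+AxL mice had 9.30, 9.21, 9.16, 9.48 and 9.19, and the AxL mice 9.59, 8.73, 9.05, 10.83 and 9.27. On 1436790_a_at the TPlp+AxL mice had 9.22, 8.88, 8.99, 9.22 and 9.15, and the AxL mice 9.24, 8.92, 8.97, 10.98 and 9.17. AxL mouse 4 was the highest of the 10 mice on all 6 Sox11 probe sets, by a factor of 3.73 over the other AxL mice on 1436790_a_at, of 3.18 on 1453125_at, of 2.11 to 2.53 on 3 others, and of 1.3 on 1431225_at.

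The 6 Sox11 changes were all negative, from -0.36 to -0.18, and none passed (limma adjusted p of 0.348 to 0.757). Without AxL mouse 4 they ran from -0.10 to 0.11, with 4 of 6 positive and adjusted p of 0.442 to 0.998, and the SD of 1436790_a_at was 0.15 in TPlp+AxL and 0.16 in AxL, where it was 0.86 in AxL with all 5 mice. The 5 probe sets other than 1431225_at moved closely together, with r of 0.96 to 0.99 for their 10 pairs (adjusted p of 0.00462 to 0.0106, exact permutation test), and r of 0.72 to 0.97 without AxL 2 and AxL 4. The remaining one had r of 0.70 to 0.79 with these and -0.15 to 0.23 without the same 2 mice.

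Sox4 was steady by comparison. Its 8 probe sets had changes of -0.06 to 0.07, 4 negative and 4 positive, with bounds no wider than -0.23 and 0.18 and limma adjusted p of 0.448 to 0.917. On the brightest, 1433575_at, the TPlp+AxL mice had 10.82, 10.73, 10.93, 10.78 and 10.71, and the AxL mice 10.77, 10.79, 11.18, 10.71 and 10.79. The high AxL mouse was here mouse 3 and not mouse 4, whose Sox4 value was 0.891 times that of the other AxL mice. The 28 pairs of Sox4 probe sets had a median r of 0.06, and 0 of them passed (exact permutation test), in contrast to the 10 of 15 pairs that did for Sox11. The Sox4 probe sets reached lower levels, with means of 7.43 to 10.82, where those of Sox11 were 8.40 to 9.38. What part the level had in this contrast was not tested. The bases before the start of both genes are shown because the paralogs parted in AxL mouse 4, with E-boxes in capitals, from RefSeq on GRCm38.p6.
Sox11 (chr12:27342719-27342968, minus strand): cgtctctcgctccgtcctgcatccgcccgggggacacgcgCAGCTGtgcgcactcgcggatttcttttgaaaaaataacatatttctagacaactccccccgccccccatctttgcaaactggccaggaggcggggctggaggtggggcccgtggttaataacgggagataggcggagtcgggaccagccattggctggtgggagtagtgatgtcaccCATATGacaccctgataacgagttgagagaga
Sox4 (chr13:28953700-28953949, minus strand): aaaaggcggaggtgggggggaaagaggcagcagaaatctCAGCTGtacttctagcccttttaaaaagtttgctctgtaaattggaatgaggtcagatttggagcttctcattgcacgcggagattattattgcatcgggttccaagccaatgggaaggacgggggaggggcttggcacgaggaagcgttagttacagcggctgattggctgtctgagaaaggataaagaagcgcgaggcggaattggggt
Sox11 has 2 E-boxes in its window and Sox4 has 1. Each window also holds CCAAT on one strand or the other, as do 33.8% of all windows, and neither holds TGACG, which says only that these letters are not in these windows.

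Genes that neurons switch on with activity were also high in AxL mouse 4. A list of 18 such genes was drawn up after the Sox11 values were seen, so all its values and counts are given as a description. Its mean log2 value was 9.33 to 9.53 in the TPlp+AxL mice and 9.23 to 9.58 in the other 4 AxL mice, and 10.24 in AxL mouse 4. In 16 of the 18 (88.9%) AxL mouse 4 was the highest of the 10 mice, as it was for 27.7% of all genes. Over the other AxL mice its factors ran from 1.04 to 3.19 across the list. The largest were 3.19 for Gadd45b, a stress and activity response gene, and 3.01 for Arc, a synaptic immediate early gene. Next came 2.64 for the pentraxin Nptx2, 2.61 for Egr3 and 2.59 for the activin subunit Inhba. Penk had 2.17 and the neurotrophin Bdnf 1.98. By the brightest probe sets, factors were lower for Egr1 (1.36), Junb (1.35), Homer1 (1.27) and Npas4 (1.15). The lowest were those of Egr2 (1.13) and Egr4 (1.04), in which AxL mouse 4 was not the highest. Between the groups 0 of the 18 passed in limma and 1 had an unadjusted p under 0.05, with a median of -0.23. Of all genes 1.26% passed and 17.9% had such a p. The smallest p were those of Homer1 (-0.20, adjusted p = 0.262, with 0.06 on another probe set) and Npas4 (-0.22, adjusted p = 0.364). The 5 genes most like the brightest Sox11 probe set over the 10 mice were Zfp804a, Rimbp2, Klf10, Egr3 and Gse1 (r of 0.97 to 0.98), chosen after the values were seen. Without AxL mouse 4 their r was 0.82 to 0.90. What part activity had in the Sox11 values was not tested.

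**Figure D3:**
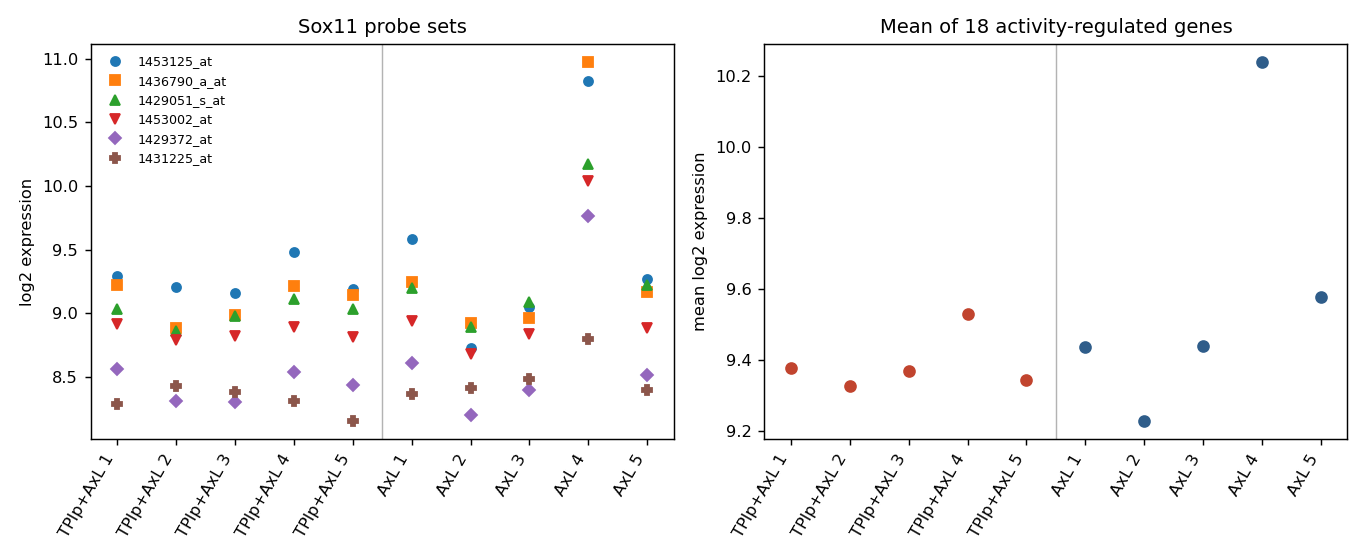
Left, log2 expression (vertical axis) of the 6 Sox11 probe sets in each mouse (horizontal axis, TPlp+AxL left of the grey line and AxL right of it), 1 symbol per probe set. Right, the mean log2 expression of 18 activity-regulated genes in the same mice, where AxL mouse 4 lies at 10.24 and the other 9 between 9.23 and 9.58.

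Prox1, the granule cell factor, gave 2 probe sets that shared their high mice and 1 that did not. On 1437894_at the TPlp+AxL mice had 8.22, 8.27, 8.60, 8.60 and 7.99, and the AxL mice 8.59, 7.82, 8.19, 8.25 and 8.31. Both groups covered nearly the same range. The change was 0.10 (SE 0.15, 95% interval -0.22 to 0.42, adjusted p = 0.766 in limma), and 1457432_at had 0.00029 (95% interval -0.15 to 0.15). These 2 correlated across mice (r = 0.86, adjusted p = 0.0106, rho = 0.84, adjusted p = 0.0294, exact permutation test), with r of 0.83 without AxL 1 and AxL 2. The dimmest, 1421336_at, was 6.58 to 6.66 in TPlp+AxL and 6.83, 6.64, 6.57, 7.41 and 6.61 in AxL, with the highest value in AxL mouse 4, and had r of 0.13 and 0.08 with the others. Its change was -0.19 (adjusted p = 0.536), and -0.04 without that mouse (adjusted p = 0.79), in limma.

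Calb2, which labels young granule neurons for a time and interneurons and Cajal-Retzius cells throughout, spread widely within both groups. The TPlp+AxL mice had 10.32, 10.72, 9.97, 10.26 and 10.67, and the AxL mice 10.41, 10.46, 10.30, 10.76 and 10.17. The TPlp+AxL range enclosed all AxL values but that of mouse 4, and the change was -0.03 (SE 0.15, 95% interval -0.35 to 0.29, limma adjusted p = 0.933). In the list of interneuron genes 0 of 11 passed in limma, with 1 at an unadjusted p under 0.05 and a median of -0.13, and in that of Cajal-Retzius cells 0 of 6, with 1 and a median of -0.01. Of all genes 1.26% passed and 17.9% had such a p. The interneuron median was -0.07 after quantile normalization and -0.06 after cyclic loess. The members with the smallest p were the RNA-editing enzyme homolog Adarb2 (-0.16, adjusted p = 0.18) and the peptide Sst (-0.24, adjusted p = 0.386) of the interneurons, and the factor Ebf3 (0.14, adjusted p = 0.33) and reelin (Reln, -0.12, adjusted p = 0.49) of the Cajal-Retzius cells. Other probe sets of Adarb2 (0.02 and 0.05), Ebf3 (-0.03) and Reln (0.0030) had the opposite sign.

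Islr2, a membrane protein of developing axons also called Linx, had the widest gap in means outside Sox11. The TPlp+AxL mice had 8.26, 8.25, 8.31, 8.32 and 8.40, and the AxL mice 8.66, 8.32, 8.34, 8.85 and 8.91. AxL mice 1, 4 and 5 lay above every TPlp+AxL mouse, and the other two lay within the TPlp+AxL range. The means were 8.31 ± 0.06 in TPlp+AxL and 8.61 ± 0.28 in AxL (SD, n = 5 each), and the change was -0.31 (SE 0.11, 95% interval -0.54 to -0.07, adjusted p = 0.247 in limma). Probe sets of the same level had a median change of -0.01. The Islr2 change was -0.38 to -0.23 with 1 array left out in turn and -0.31 and -0.30 after quantile and cyclic loess normalization.

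**Figure D4:**
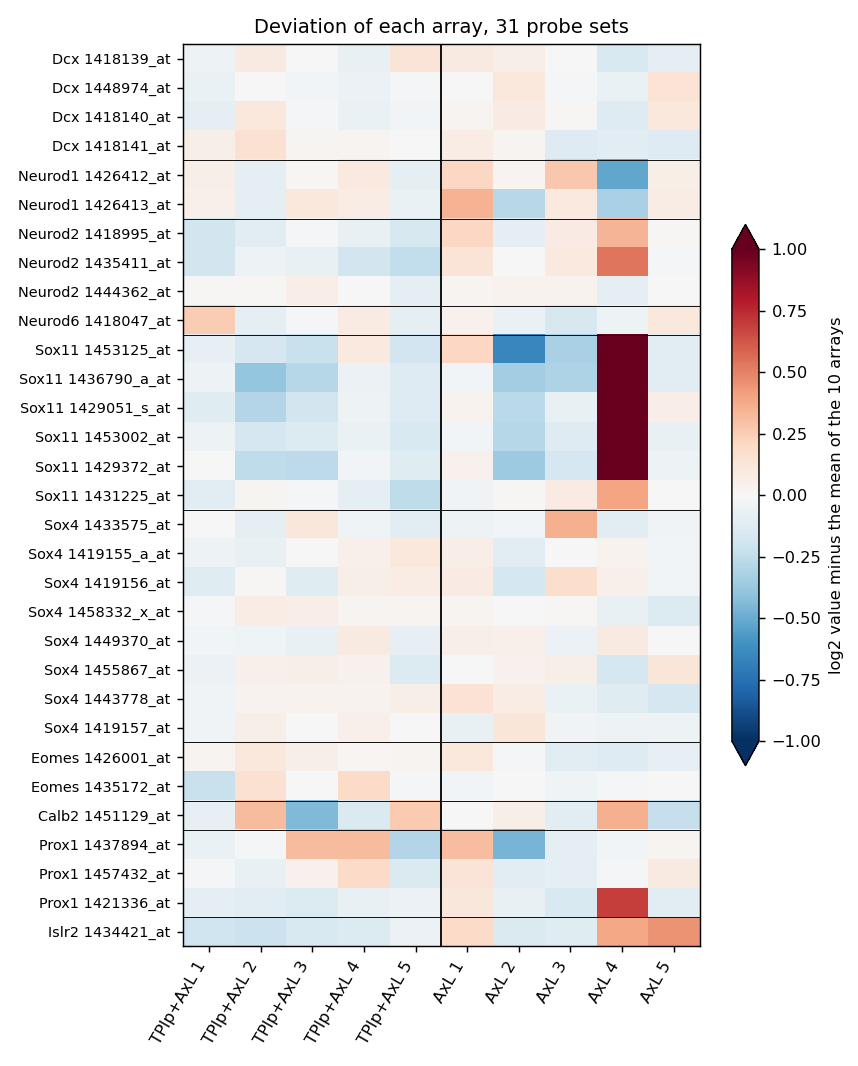
Log2 value of each mouse minus the mean of the 10 arrays (colour, red above and blue below, saturated beyond 1 unit) for the 31 probe sets (rows, grouped by gene) and 10 mice (columns, TPlp+AxL left of the black line). In AxL mouse 4, 5 Sox11 probe sets are past the end of the scale.

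The SD was larger in AxL in 24 of the 31 probe sets (77.4%), among them all 6 of Sox11, and in 67.7% of all probe sets, a share near that of these genes. Between genes there was little common movement. Of the 45 pairs of brightest probe sets of different genes, with group means subtracted, 0 passed after adjustment (exact permutation test within groups, smallest adjusted p of 0.492 for Pearson r and 0.553 for Spearman rho), and the median r was 0.03. The highest, between Neurod2 and Sox11 (r = 0.85, adjusted p = 0.492, rho = 0.71, adjusted p = 0.653), was 0.40 without AxL 2 and AxL 4. The pair of early markers Dcx and Eomes had r = 0.67 (adjusted p = 0.629) and rho = 0.72 (adjusted p = 0.553), and r = 0.75 without TPlp+AxL 5 and AxL 4.

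Other genes of immature neurons were read from a separate list. Of 28 measured genes on a list of 30, 0 passed in limma and 6 had an unadjusted p under 0.05, while 1.26% of all genes passed and 17.9% had such a p. Changes ran from -0.28 to 0.16, with 19 negative and 9 positive, where 62.7% of all genes were negative, and a median of -0.06, beside a median of -0.03 over all 18193 genes. The list's median was -0.02 after quantile normalization and -0.01 after cyclic loess. The smallest p belonged to Cdk5r1 (p35), the activator of the neuronal kinase Cdk5. Its brightest probe set differed by -0.22 (95% interval -0.33 to -0.12, SE 0.05, adjusted p = 0.0619 in limma) with all 5 TPlp+AxL mice below the AxL mice. Groups did not overlap for 1 of the 28 genes, and for 1.64% of all probe sets with TPlp+AxL lower. That probe set had a mean level of 11.65, and probe sets with levels from 11 to 12 had a median change of -0.11. In this list 1 gene passed in limma with array medians subtracted, with array weights, with 1 probe set per gene tested or without AxL mouse 2. Another probe set of Cdk5r1 had 0.04 (adjusted p = 0.634). Crmp1, a collapsin response mediator of growing axons, had -0.28 (SE 0.09, adjusted p = 0.177). At the other end Cd24a, a surface antigen of neuroblasts, had 0.16 (adjusted p = 0.36) and the tubulin Tubb2b 0.12 (adjusted p = 0.548).

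**Figure D5:**
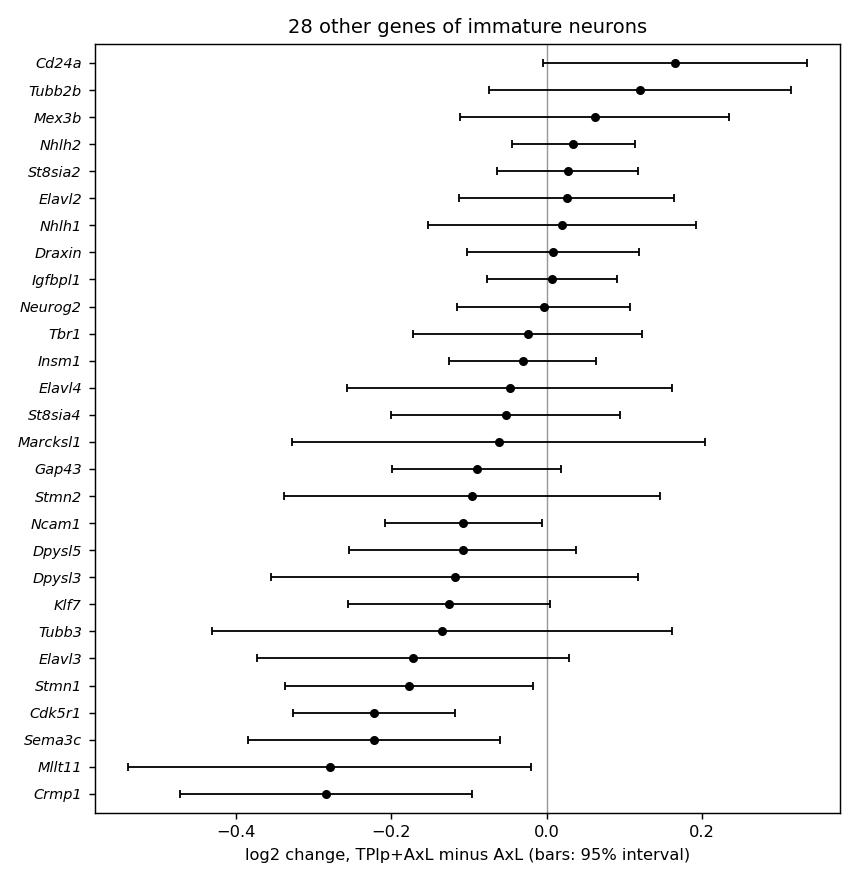
Log2 change (horizontal axis, TPlp+AxL minus AxL, points) with 95% interval (bars) of the brightest probe set of each of 28 other genes of immature neurons, ordered by change. All points lie between -0.28 (Crmp1) and 0.16 (Cd24a), and none passed the threshold.

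Cells before and after the neuroblast stage showed no call in the main fit either. Over all genes 1.26% passed in limma and 17.9% had an unadjusted p under 0.05. In the list of neural stem cells 0 of 10 genes passed in limma, with 3 at an unadjusted p under 0.05 and a median of -0.05, and in that of proliferation 0 of 14, with 1 and a median of 0.03. After quantile normalization 1 gene of the stem cell list passed in limma. The filament Vim, which stem cells share with astrocytes and other cells, had 0.35 (adjusted p = 0.228 in limma) on its brightest probe set. There the TPlp+AxL mice lay above the AxL mice, and groups did not overlap, in either direction, for 3.59% of all probe sets. On other Vim probe sets, with 0.35 (adjusted p = 0.251) and 0.12 (adjusted p = 0.791) in limma, the groups overlapped. The lysophosphatidic acid receptor Lpar1 had -0.15 (adjusted p = 0.254), with 0.01 on another probe set. The replication helicase subunit Mcm3 had 0.14 (adjusted p = 0.246), with -0.07 and -0.02 on other probe sets, and the mitotic kinase Aurkb had 0.09 (adjusted p = 0.444). Among mature granule cells 0 of 12 passed, with 2 at an unadjusted p under 0.05 and a median of -0.12, and the smallest p were those of Stxbp6 (-0.19, adjusted p = 0.272) and Il16 (-0.15, adjusted p = 0.285, with 0.05 on another probe set). Among pyramidal neurons 0 of 11 passed in limma, with 1 at an unadjusted p under 0.05 and a median of -0.10, led by Crym (-0.17, adjusted p = 0.15) and Fibcd1 (-0.26, adjusted p = 0.356). The granule cell median was -0.05 after quantile normalization and -0.04 after cyclic loess. The pyramidal median was -0.01 after each of them.

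Markers of other cells that a hippocampal dissection can hold were read beside these genes, where 1.26% of all genes passed in limma and 17.9% had an unadjusted p under 0.05. The choroid plexus list, with 0 of 8 past the threshold in limma, 0 at an unadjusted p under 0.05 and a median of -0.38, had means of 8.45 to 9.89 in TPlp+AxL and 8.40 to 10.74 in AxL, and was high in TPlp+AxL mouse 1 and AxL mice 3 and 5. Its smallest p were those of Kl (-0.43, adjusted p = 0.572, with 0.02 on another probe set) and Kcnj13 (-0.96, adjusted p = 0.63). With the mean of this list as a covariate, 0 of the 31 probe sets passed. The list drawn up for oligodendrocyte precursors, which also express SoxC genes, holds genes of the wider oligodendrocyte lineage too, such as Bcas1 and Olig1. It had 0 of 7 in limma, 4 at an unadjusted p under 0.05 (17.9% of all genes) and a median of -0.19. Its means were 9.89 to 10.02 in TPlp+AxL and 10.07 to 10.25 in AxL. Its smallest p were those of Bcas1 (-0.28, adjusted p = 0.0845, with 0.0019 on another probe set) and Olig1 (-0.28, adjusted p = 0.191). In that list 1 gene passed with the replicate block or without AxL mouse 1. In the list of endothelium and lymphatic vessels, which hold Prox1 where lymphatic, 1 of 9 fell, Sox17 (-0.36, SE 0.07, adjusted p = 0.0462), against 0.28% of all genes, and its other probe set had -0.02 (adjusted p = 0.836). In this list 0 genes passed without AxL mouse 1, 3 or 5, without any 1 of the TPlp+AxL mice, with the replicate block, with the choroid plexus covariate, or without probe sets of suffix _s_at, _x_at or _a_at, such as that of Sox17. The thalamus and habenula list had 0 of 8 in limma, 0 at an unadjusted p under 0.05 and a median of -0.04, led by Nwd2 (-0.14, adjusted p = 0.468) and Pou4f1 (0.08, adjusted p = 0.481, with -0.06 on another probe set). The 7 hippocampal genes had 0 past the threshold by their brightest probe sets, 0 at an unadjusted p under 0.05 and a median of -0.06, while a dimmer probe set of Zbtb20, a factor of hippocampal neurons, fell by 0.23 (adjusted p = 0.0345) and its brightest had -0.11 (adjusted p = 0.519), with 0.08 on the dimmest. Wfs1 had -0.10 (adjusted p = 0.545).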

How the data were processed

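Hippocampal RNA of 10 mice was measured on 10 Affymetrix arrays, 1 per mouse. The deposited values are log2 expression values summarised per probe set by RMA by the authors, per the submitters' processing notes; the software version is not given in the sources used here. RMA forces all arrays to 1 distribution of probe values, so changes are relative to the array as a whole. Of 45101 deposited probe sets, 64 controls were left out; 34945 had 1 gene symbol, 932 several and 9160 none, and symbols were updated to RefSeq GRCm38.p6 through Entrez identifiers for 34741.

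TPlp+AxL was compared with AxL (5 mice each) with limma 3.58.1 in R 4.3.3 (lmFit and eBayes) over all 45037 probe sets, with Benjamini-Hochberg adjustment and a threshold of 0.05. The p-values set the difference between the groups against the spread between mice within them. That spread is pooled over both groups and moderated over all probe sets, and the number of arrays limits the precision. The fit was also run on simulated data with independent normal noise, the same SD in both groups and no outlying mouse. That run cannot show how the fit handles unequal spread or a mouse such as AxL mouse 4. The brightest probe set stood for a gene where genes were counted. All 10 genes are named with all probe sets; from each other list come up to 3 passing genes, by size of change, or else the 2 of smallest p, and for Dcx the 5 genes most like it. Cd24a and Tubb2b, the dimmer Zbtb20 probe set, the activity-regulated list and the genes most like Sox11 were named after their values were seen. The 10 genes and all lists were chosen with earlier results of these data known. Alternatives covered the variance model, filters, normalization, array weights, single arrays left out, replicate number and a choroid plexus covariate.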

Additional observations from a re-analysis of the deposited data

Results flagged for a closer look

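In groups of 5 mice, 1 mouse lay far from the other 4, by Dixon's test of the gap over the range, in 11 of 66 group and measure combinations, where chance alone gives about 1 in 20, and 7 of the 11 concerned AxL mouse 4. On Sox11 this mouse stood above its nearest group member on 1436790_a_at (10.98, nearest 9.24), 1429051_s_at (10.18, nearest 9.23), 1453002_at (10.04, nearest 8.94), 1429372_at (9.77, nearest 8.61) and 1431225_at (8.80, nearest 8.48). The brightest Sox11 probe set, 1453125_at, was not flagged in AxL (10.83, nearest 9.59). On Neurod2, AxL mouse 4 was high on 1435411_at (11.69, nearest 11.29) and low on 1444362_at (6.55, nearest 6.65). On Sox4, AxL mouse 3 was high on 1433575_at (11.18, nearest 10.79), AxL mouse 2 was high on 1419157_at (7.55, nearest 7.40), and TPlp+AxL mouse 1 was low on 1443778_at (7.40, nearest 7.47). The mean of the activity-regulated genes was high in TPlp+AxL mouse 4 among its group (9.53, nearest 9.38). That of AxL mouse 4 was not flagged (10.24, nearest 9.58). The activity-regulated list was drawn up after the Sox11 values were seen and is among the 66 combinations. The comparison with 1 in 20 is therefore a description. The probe sets of 1 gene and the genes of 1 mouse are not independent.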

How the results depend on the processing

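In each alternative run, 0 of the 10 genes' probe sets passed in limma; the smallest adjusted p was 0.083, for Neurod2 1418995_at without 1 AxL array (AxL mouse 2). Calls over all probe sets numbered 376 (291 higher, 85 lower), 479 with array medians subtracted (269 and 210), 753 with array weights (465 and 288), 757 at an adjusted p under 0.10 (490 and 267), 241 with the replicate number as a block (203 and 38), and 185 to 460 with 1 array left out. The replicate numbers did not pair the mice (same-numbered deviations correlated at -0.22 to 0.36, and only number 2 correlated best with its own); with the replicate block 0 of 31 passed and Neurod2 1435411_at had an adjusted p of 0.246. Signs turned for changes near 0. With array medians subtracted Sox4 1419155_a_at had -0.0150 and Prox1 1457432_at -0.0276. With quantile normalization Neurod1 1426412_at had 0.0891, Sox4 1433575_at 0.0478, Calb2 0.0420 and Prox1 1457432_at -0.0276, and with cyclic loess they had 0.0831, 0.0435, 0.0527 and -0.0242. With array weights Neurod1 1426413_at had -0.0447. With the choroid plexus covariate Neurod1 1426412_at had 0.0458, Sox4 1433575_at 0.00199, Neurod2 1444362_at 0.00470 and Prox1 1457432_at -0.00792. With 1 array left out in turn, changes ran from -0.117 to 0.0725 for Calb2, -0.00300 to 0.101 for Eomes 1435172_at, -0.145 to 0.0515 and -0.0457 to 0.123 for Neurod1 1426412_at and 1426413_at, -0.0289 to 0.0191 for Neurod2 1444362_at, -0.00707 to 0.0842 for Neurod6 and -0.0473 to 0.0365 for Prox1 1457432_at. They ran from -0.417 to 0.108 for Sox11 1453125_at, -0.498 to 0.0151 for 1436790_a_at, -0.327 to 0.0144 for 1453002_at and -0.390 to 0.000651 for 1429372_at, with these 4 positive only without AxL mouse 4. They ran from -0.0136 to 0.0329, -0.0852 to 0.0320 and -0.0649 to 0.0128 for Sox4 1419155_a_at, 1433575_at and 1455867_at. The cause was not tested.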
